A study of Mus musculus with 18 samples.

Results

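The cilium and centrosome genes described here were taken by symbol from the count tables of mouse embryonic stem cells (ESCs) and epiblast-like cells (EpiLCs). They are all genes whose symbol is Ift, Bbs, Cfap, Cep or Nphp followed by a digit, together with Pcm1, Pcnt, Ofd1, Rpgrip1l, Ahi1 and Arl13b. The rule found 82 genes among the 14411 of either table. Of these, 81 of 13104 genes stood in the ESC table, 78 of 13717 in the EpiLC table and 77 of 12410 in both. The 82 were 36 Cep, 15 Cfap, 14 Ift, 8 Bbs and 3 Nphp genes and the 6 genes named by their own symbol. The annotation holds 102 such symbols, and most of those without a row were Cfap genes, of which 15 of 31 had one. Cep83os, Cfap157, Cfap206 and Cfap45 had a row in the ESC table alone and Cfap57 in the EpiLC table alone. Cep83os is listed as a long noncoding RNA, and its symbol met the rule. All 81 and all 78 rows passed the filter on low counts.

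Cilia grow from a mother centriole that docks at the cell surface, and the same centrioles, wrapped in pericentriolar material, form the centrosome that organises the spindle of a dividing cell. Intraflagellar transport (IFT) trains carry cargo along the cilium, with the IFT-B complex moving with kinesin towards the tip and the IFT-A complex serving the return with dynein, while the BBSome moves membrane proteins out of the cilium and the transition zone at its base controls entry. In the mouse embryo primary cilia are found on epiblast cells and carry Hedgehog signalling, and many Cfap genes build the motile axoneme of specialised cells and sperm.

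RNA was measured in 12 libraries, 3 for each cell type and exposure. ESCs were grown in 2i+LIF medium, and EpiLCs were made from them with activin A, basic FGF and KnockOut serum replacement. In both cell types the exposed cells received 100 nM Δ9-tetrahydrocannabinol (Δ9-THC), the main psychoactive compound of cannabis, and the control cells received its ethanol vehicle. EpiLCs labelled as exposed came from the scheme in which the drug was given through both the ESC and the EpiLC stage. All cells carried the Blimp1::mVenus and Stella::ECFP reporters. The methods name a female and a male clone of this line, and the labels do not say which gave the libraries. The paper states that its data on ESC proliferation came from female cells and shows male cells apart. It does not name the clone used for RNA. Libraries were prepared from poly(A) RNA with 1 of 2 kits, and the labels do not name the kit of each library.

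ESC libraries held 24103915 to 32096698 adjusted counts and EpiLC libraries 23427551 to 32078776. The summed level of 10 markers of naive pluripotency was 4399 to 4795 CPM (counts scaled to the size of each library) in ESC libraries and 332 to 387 CPM in EpiLC libraries. The summed level of EpiLC markers ran the other way, with 5 of 6 listed in ESCs at 154 to 174 CPM and 6 of 6 in EpiLCs at 1731 to 2112 CPM. The multiciliated-cell markers Mcidas, Dnah5, Dnah9 and Deup1 had no row in either table, and those with a row summed to at most 9.72 CPM in any library. In each table, vehicle and exposed libraries with the same replicate number deviated from their group means in opposite directions. The Pearson correlation of these deviations across genes was −0.987, −0.979 and −0.977 in ESCs and −0.979, −0.979 and −0.985 in EpiLCs, whereas libraries with different numbers gave 0.369 to 0.604 and 0.223 to 0.695. The libraries were therefore not independent as deposited, genes are not independent replicates either, and the p-values below treat each library as independent. The counts had been adjusted for batches with ComBat-seq before deposit, by batches that are not given in the sources used here. The part of that adjustment in this pattern, in the spread between libraries and in the p-values was not tested. These are bulk samples, so that fewer cells with a transcript and less of it per cell cannot be told apart.

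Genes of the cilium are known to share the X-box, the palindromic binding sequence of RFX transcription factors, and their promoters were searched for it. RefSeq promoters (GRCm38.p6, 250 bases before to 50 bases after the annotated start) were matched for 69 of the 82 genes, giving 82 promoters. An X-box was taken as the arms GTTNCC and GGNAAC with 0 to 3 bases between them, a pattern that reads the same on both strands. It stood in 6 of the 82 promoters (7.32%), against 0.804% of 32851 mouse promoters of the same length and 0.838% of the 13601 promoters of genes in either count table. The 6 genes were Ahi1, Bbs7, Cep19, Cep41, Cfap298 and Ift57, and Cfap298 held 2 sites. The search fixed every base of the arms except the N, so agreement of the arms between genes follows from the search. The sites are printed with the X-box in capitals, within 30 bases read 5′ to 3′ on the strand of the gene.
Ahi1: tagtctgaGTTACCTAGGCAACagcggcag
Bbs7: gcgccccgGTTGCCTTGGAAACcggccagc
Cep19: agccttctGTTGCCTTGGGAACgatcctcg
Cep41: gtcccgcGTTGCCCTTGGCAACcattgagc
Cfap298 distal site: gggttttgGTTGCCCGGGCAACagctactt
Cfap298 proximal site: tttgactGTTGCCCCTGGCAACagccactt
Ift57: gccctgcgGTTGCCTGGTAACggtggggac
The windows lie at chr10:20952560-20952589 (Ahi1, plus strand), chr3:36613489-36613518 (Bbs7, minus strand), chr16:32099803-32099832 (Cep19, plus strand), chr6:30693858-30693887 (Cep41, minus strand), chr16:90935016-90935045 and chr16:90934896-90934925 (Cfap298, minus strand) and chr16:49699226-49699255 (Ift57, plus strand). The X-box of Ift57 began 60 bases before the annotated start and those of Cfap298 began 188 and 69 bases before it. The X-box of Ahi1 began 21 bases after the start and that of Cep19 began 22 bases after it. All 7 sites began with GTTGCC except that of Ahi1, which began with GTTACC.

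The 3 genes called lower under Δ9-THC in ESCs were Ift57, Cfap298 and Cep170b, by a test described further below. These calls depended on how the libraries were modelled. Of the 3 genes, 2 held an X-box and the third held a single arm, and whether this bears on their level was not tested. The 250 bases before each annotated start are printed here, with the X-box and any other copy of the arm GTTGCC in capitals.
Ift57: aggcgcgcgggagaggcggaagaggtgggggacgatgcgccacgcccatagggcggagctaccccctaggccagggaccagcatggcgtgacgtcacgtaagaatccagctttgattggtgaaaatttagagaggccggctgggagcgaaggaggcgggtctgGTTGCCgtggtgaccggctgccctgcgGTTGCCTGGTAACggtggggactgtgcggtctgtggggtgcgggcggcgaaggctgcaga
Cfap298: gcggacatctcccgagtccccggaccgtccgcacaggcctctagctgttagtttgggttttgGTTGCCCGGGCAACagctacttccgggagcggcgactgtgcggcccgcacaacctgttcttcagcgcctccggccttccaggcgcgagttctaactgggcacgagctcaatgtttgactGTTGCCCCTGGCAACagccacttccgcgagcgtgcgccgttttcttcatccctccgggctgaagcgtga
Cep170b: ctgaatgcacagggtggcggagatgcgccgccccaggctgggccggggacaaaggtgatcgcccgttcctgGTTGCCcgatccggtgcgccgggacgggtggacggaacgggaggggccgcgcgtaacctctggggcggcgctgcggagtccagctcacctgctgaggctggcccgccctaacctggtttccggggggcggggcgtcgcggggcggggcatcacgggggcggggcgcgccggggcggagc
These stretches lie at chr16:49699044-49699293 (plus strand), chr16:90934850-90935099 (minus strand) and chr12:112721924-112722173 (plus strand). The arm GTTGCC on either strand stood in 30.5% of the promoters of cilium and centrosome genes and in 12.5% of all promoters. This arm was not among the motifs planned beforehand, and it is the commonest arm of the sites found here. The 6 genes with an X-box are counted among those with the arm, so its share is not a separate result. The CHR element TTTGAA, known from cell-cycle genes, stood in 17.1% and 17.9%, and the CCAAT box in 45.1% and 37.4%. Over the promoters of genes in either count table the share was 12.7% for the arm, 11.9% for the CHR element and 38.0% for the CCAAT box. Among the 6 genes with an X-box, 3 were higher and 3 lower in exposed ESCs and 4 were higher and 2 lower in exposed EpiLCs, and so the 6 did not share a direction in either cell type.

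Most of these genes were present at a low to middle level. Levels between genes were compared as CPM per kilobase of exon, and the median over the 81 genes in vehicle ESCs was 3.77 CPM per kb, against 5.41 CPM per kb over all genes. In vehicle EpiLCs the median was 4.18 CPM per kb, against 4.68 CPM per kb over all genes. The highest in ESCs was Cep55, which acts in the final cut between daughter cells, at 33.4 ± 1.67 CPM per kb (SD, n = 3). Pcm1, the scaffold of centriolar satellites, followed at 27.6 ± 1.35 CPM per kb and the IFT-B core gene Ift52 at 22.6 ± 0.837 CPM per kb. In EpiLCs Pcm1 was highest, at 21.8 ± 2.27 CPM per kb. The lowest of each family in vehicle ESCs were Cep83os at 0.157 CPM per kb, Cfap43 at 0.218 CPM per kb, Bbs1 at 0.921 CPM per kb, Nphp4 at 1.47 CPM per kb and Ift122 at 1.70 CPM per kb. Among the highest of each family were Cfap36 at 13.0 CPM per kb and Bbs9 at 4.09 CPM per kb, beside Cep55 and Ift52. The 5 highest in vehicle ESCs were thus Cep55, Pcm1, Ift52, Cep57 and Cep192, with Ift52 the one transport gene among them.

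Between the cell types most members kept a similar level. The ESC and EpiLC tables were adjusted separately by the authors, so the following ratios are descriptions with no test. Of the 77 genes in both tables, 67 (87.0%) lay within 2-fold between vehicle ESCs and vehicle EpiLCs, as did 78.3% of all genes, and 39 were higher in EpiLCs. Cfap300, a factor for the assembly of axonemal dynein, stood at 1.58, 1.50 and 1.48 CPM in vehicle ESCs and at 8.52, 8.74 and 8.28 CPM in vehicle EpiLCs, a ratio of 5.60. Cep126 stood at 6.12, 6.06 and 6.08 CPM in ESCs and at 20.6, 19.3 and 17.5 CPM in EpiLCs, a ratio of 3.15. The vehicle libraries of the cell types did not overlap for either gene. This was common among the members, since for 48 of the 77 genes the ESC and EpiLC libraries, vehicle and exposed, did not overlap. The share over all genes was not computed, so the count does not set the members apart from other genes. The ratio was 2.78 for Cfap43, 2.35 for the chaperonin-like Bbs12 and 2.01 for Cfap74.

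The genes lower in EpiLCs were of several kinds. Cep55 stood at 100.1, 99.3 and 91.3 CPM in vehicle ESCs and at 39.9, 39.9 and 35.8 CPM in vehicle EpiLCs, a ratio of 0.398. The IFT-A gene Ift140 stood at 36.4, 40.2 and 37.8 CPM in ESCs and at 15.5, 16.8 and 16.4 CPM in EpiLCs, a ratio of 0.426. For each of them the vehicle libraries of the cell types did not overlap, as for most of the members. The ratio was 0.293 for Cep112, 0.354 for Cfap77 and 0.365 for Cep128, a component of the subdistal appendages of the mother centriole. Under exposure the ratios were 3.83 for Cep126, 0.398 for Cep55 and 0.562 for Ift140.

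**Figure D1:**
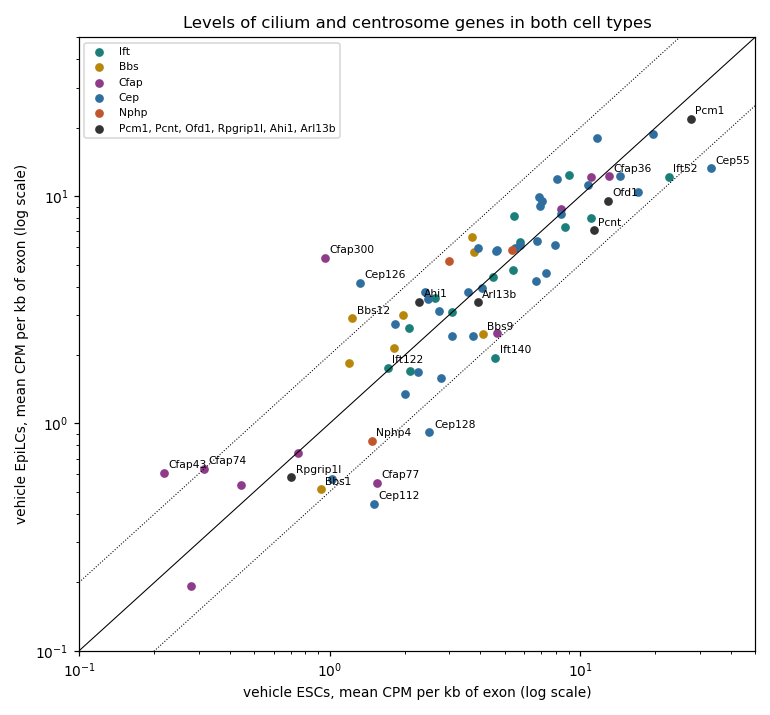
Mean level of the 77 genes found in both tables, in CPM per kb of exon on log axes, in vehicle ESCs (horizontal) and vehicle EpiLCs (vertical), coloured by family. The solid line marks equal levels and the dotted lines a 2-fold difference; 67 genes lie between the dotted lines, Cfap300 lies farthest above them and Cep112 farthest below.

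In ESCs the main test called 3 cilium and centrosome genes lower under Δ9-THC and none higher. These were Ift57, a subunit of the IFT-B complex, Cfap298, needed for the assembly of dynein arms, and Cep170b, a relative of the centriolar protein Cep170. They were the genes among 81 (3.70%) whose adjusted p was 0.05 or less in the quasi-likelihood test of edgeR, with adjustment by Benjamini-Hochberg across the table. Of all 13104 genes 6.91% passed in either direction and 3.55% passed as lower. The share among cilium and centrosome genes was thus below the first and close to the second. On simulated counts for ESCs the share of false calls was above the threshold for edgeR and for DESeq2. Those counts were drawn independently for each library, so they cannot give the share of false calls in these data.

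Cep170b stood at 55.0, 55.1 and 55.1 CPM in the vehicle libraries and at 47.2, 47.3 and 47.5 CPM in the exposed libraries. Its vehicle and exposed libraries were far apart relative to a spread of at most 0.150 CPM (SD, n = 3). Its log2(fold-change) was −0.22 ± 0.03 (SE), with an adjusted p of 0.0283. Cfap298 stood at 13.0, 13.2 and 13.7 CPM in vehicle and at 11.1, 10.9 and 10.6 CPM in exposed libraries, again without overlap. Its log2(fold-change) was −0.29 ± 0.05 (SE), with an adjusted p of 0.0304. Ift57 stood at 12.3, 13.1 and 13.3 CPM in vehicle and at 11.2, 10.5 and 10.4 CPM in exposed libraries. All 3 exposed libraries of Ift57 lay below all 3 vehicle libraries, and the log2(fold-change) was −0.27 ± 0.06 (SE), with an adjusted p of 0.0471.

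The adjusted libraries of these genes differed by less than Poisson counting error. In vehicle ESCs Cep170b had a mean of 1625 counts, for which Poisson counting error is 2.48% of the mean, and its CPM varied by 0.104% (coefficient of variation, n = 3). The same comparison gave 2.72% against a counting error of 5.04% for Cfap298 and 4.17% against 5.13% for Ift57. How this bears on their p-values was not tested.

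The calls depended on how the libraries were modelled. Of Cfap298, 53.6% of the exon bases are shared with 4930534H18Rik and Gm49727. Reads were counted without strand in union mode, so a read that overlaps those genes there is counted for none. With offsets that remove each library's trend with GC content and gene length, the log2(fold-change) of Cep170b was −0.04 (adjusted p = 0.494, range over its alternatives 0.0151 to 0.974), that of Cfap298 was −0.24 and that of Ift57 was −0.33, and 0 of 81 members and 2 of 13104 genes passed (edgeR). DESeq2 called 1 member, Cep170b, against 5.79% of all genes, and with the replicate number as a block, with all 12 libraries in 1 fit and without any single library 0 members passed in edgeR.

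At an unadjusted p under 0.05, 20 of 81 genes passed in ESCs (24.7%), against 28.7% of all genes. All exposed libraries lay above all vehicle libraries for 10 genes, against 16.7% of all genes, and below them for 10, against 15.9% of all genes. Both counts came to 12.3% of the members, below the share in the table. Of the 81 genes 48 had a log2(fold-change) above 0, and their median was 0.028, against 0.0041 over all genes.

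By role, 10 of 11 centriole duplication and length genes were above 0 in ESCs (90.9%, against 51.1% of all genes), with a median log2(fold-change) of 0.095 and 0 called (5 at an unadjusted p under 0.05, 0 by DESeq2). The 5 were 45.5% of the list, against 28.7% of all genes, with 4 of them higher and 1, Cep44, lower. Cep44 stood at 29.1, 28.9 and 27.2 CPM in vehicle and at 24.9, 25.3 and 26.9 CPM in exposed libraries, which did not overlap, with an adjusted p of 0.110. Cep63, which recruits the duplication machinery, stood at 16.7, 18.4 and 17.2 CPM in vehicle and at 20.8, 18.9 and 20.4 CPM in exposed libraries. The groups did not overlap, and the log2(fold-change) was 0.20 ± 0.06 (SE), with an adjusted p of 0.0864. The IFT-A genes Ift122, Ift140 and Ift43 all stood below 0, with a median of −0.14 and 0 called (2 at an unadjusted p under 0.05, 0 by DESeq2). Of the IFT-B genes 6 of 11 were above 0 and 1, Ift57, was called. The BBSome genes, with 3 of 6 above 0, the transition zone genes, with 3 of 7 above 0, and the Cfap genes, with 7 of 14 above 0, lay on both sides of 0. With the offsets for GC content and length, 8 of 11 duplication genes and 0 of 3 IFT-A genes were above 0. With them 5 of 11 IFT-B genes were above 0, and their median turned from 0.026 to −0.028. The BBSome genes then had 1 of 6 above 0, with a median that went from −0.0075 to −0.094, and the Cfap genes 5 of 14, with a median that went from −0.023 to −0.047. For the transition zone genes 4 of 7 were then above 0.

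Among the genes that were not called in ESCs, the one with the highest log2(fold-change) was Cfap206, at 0.85, 0.84 and 0.88 CPM in vehicle and 1.22, 1.27 and 1.22 CPM in exposed libraries. Its groups did not overlap, but it had a mean of 25.3 counts per vehicle library, and its adjusted p was 0.0975. Its CPM varied by 2.62% in vehicle libraries, against a Poisson counting error of 19.9%. In exposed libraries Cfap206 varied by 2.62%, against 17.7%. Pcm1 stood at 216.1, 206.1 and 196.1 CPM in vehicle and at 213.9, 225.3 and 237.0 CPM in exposed ESCs. These overlapped in 1 library of each group, with an adjusted p of 0.154. Pcnt stood at 138.1, 139.9 and 134.9 CPM in vehicle and at 136.9, 135.4 and 141.1 CPM in exposed ESCs, which overlapped fully. Cep55 stood at 103.9, 105.1 and 114.3 CPM in exposed ESCs, all above the vehicle libraries, with a log2(fold-change) of 0.15 ± 0.05 (SE) and an adjusted p of 0.119.

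Ift122 stood at 17.5, 17.3 and 17.9 CPM in vehicle and at 16.0, 16.2 and 15.8 CPM in exposed ESCs. Its groups did not overlap, with a log2(fold-change) of −0.14 ± 0.04 (SE) and an adjusted p of 0.0882. Bbs1, a BBSome subunit, stood at 6.33, 7.81 and 7.06 CPM in vehicle and at 6.45, 5.09 and 5.75 CPM in exposed ESCs. The groups of Bbs1 overlapped, with a log2(fold-change) of −0.30 ± 0.12 (SE) and an adjusted p of 0.152. Arl13b had a log2(fold-change) of 0.061 ± 0.056 (SE) in ESCs, Rpgrip1l 0.13 ± 0.06 (SE) and Bbs12 0.34 ± 0.28 (SE).

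**Figure D2:**
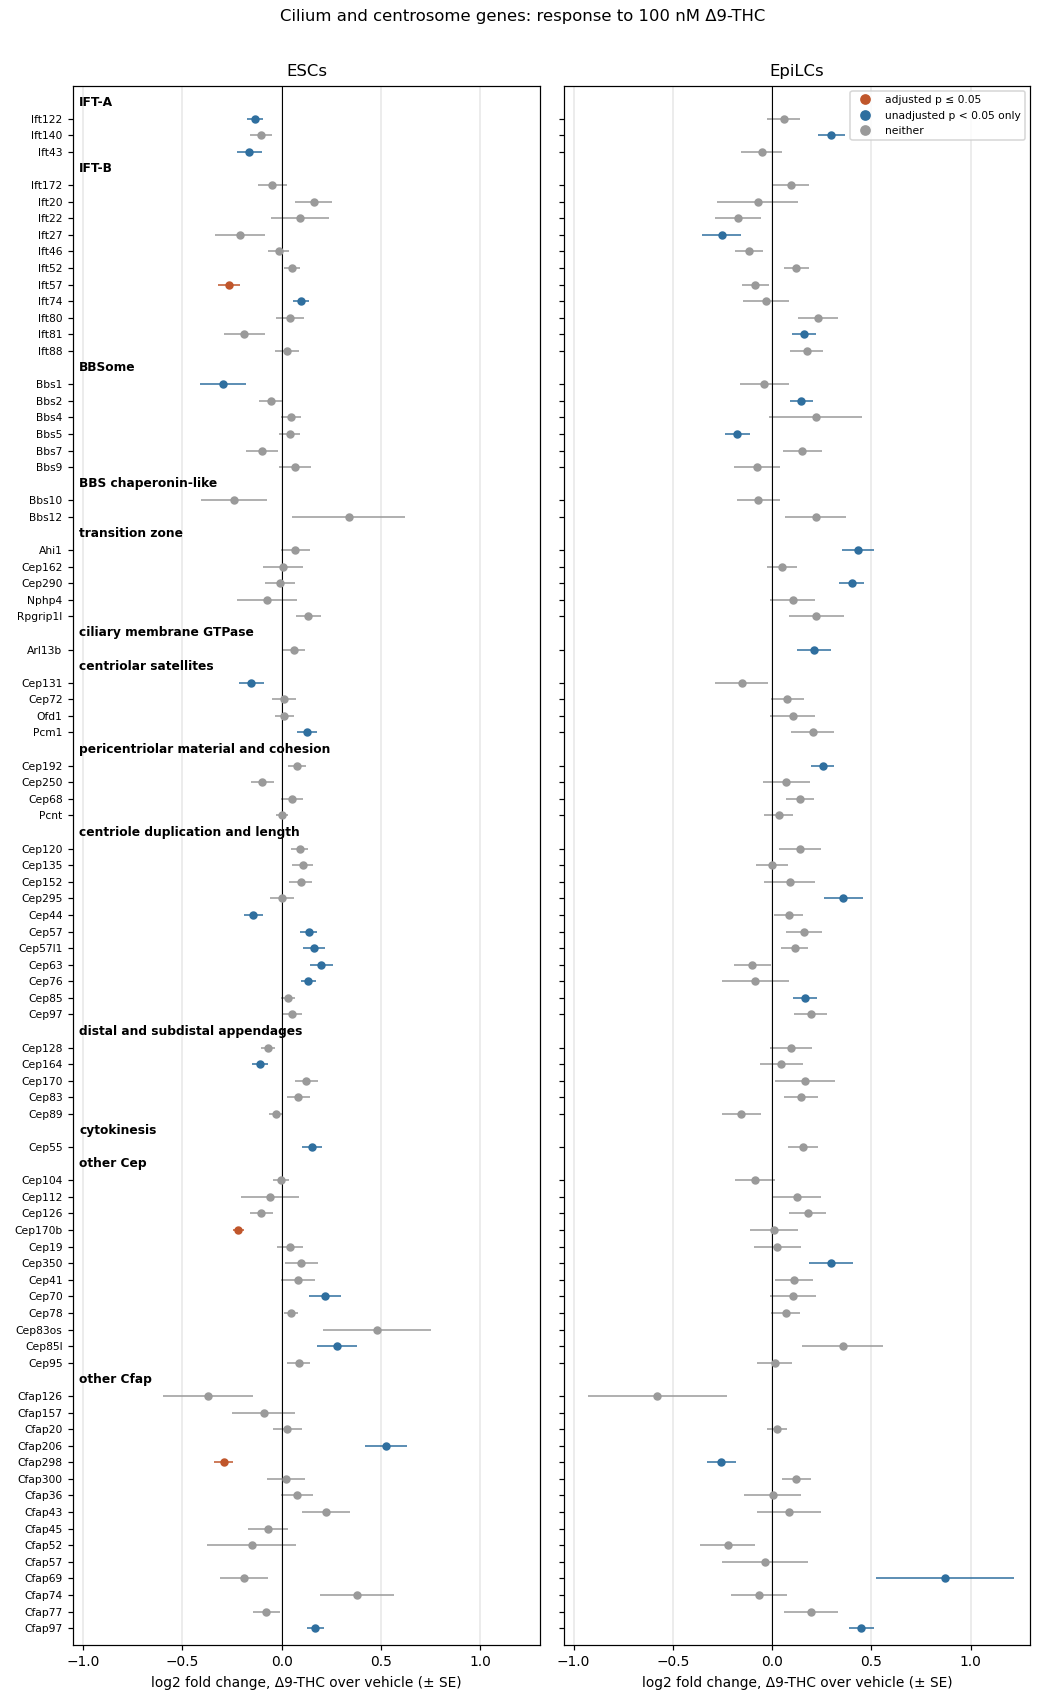
log2(fold-change) of Δ9-THC over vehicle for 80 of the 82 genes, grouped by role, in ESCs (left) and EpiLCs (right), with bars of 1 SE from the edgeR fit of 3 against 3 libraries. Orange points passed an adjusted p of 0.05, blue points passed an unadjusted p of 0.05 alone and grey points passed neither; the 3 orange points are Ift57, Cep170b and Cfap298 in ESCs.

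In EpiLCs no cilium or centrosome gene passed the test, and most had a small positive difference. At an adjusted p of 0.05 or less, 0 of 78 genes passed in edgeR, as did 0.0% of the 13717 genes of the table, and the smallest adjusted p of a member was 0.144. At an unadjusted p under 0.05, 13 genes were higher (16.7%, against 8.28% of all genes) and 3 were lower (3.85%, against 6.8% of all genes). Of the 78 genes 56 (71.8%) had a log2(fold-change) above 0, against 50.7% of all genes. Their median was 0.096, against 0.0030 over all genes. The summed level of the members was 2303, 2305 and 2295 CPM in vehicle and 2469, 2484 and 2499 CPM in exposed EpiLCs, so that every exposed library was above every vehicle library. In ESCs the sums were 2595, 2580 and 2519 CPM in vehicle and 2591, 2617 and 2691 CPM in exposed libraries, which overlapped. The 10 markers of naive pluripotency had 8 genes above 0 in EpiLCs, a median of 0.16 and 0 called (3 at an unadjusted p under 0.05, 0 by DESeq2). With offsets for GC content and length 9 were above 0 and the median was 0.11, and in the interaction 9 were above 0. Their summed level was 332 to 363 CPM in vehicle and 353 to 387 CPM in exposed EpiLCs, which overlapped. Of the 6 EpiLC markers 3 were above 0 in EpiLCs, with a median of −0.0044 and 0 called. The EpiLC markers summed to 1731 to 2073 CPM in vehicle and 1768 to 2112 CPM in exposed EpiLCs, which overlapped. The part of either marker list in the result on the members was not tested.

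All exposed EpiLC libraries lay above all vehicle libraries for 15 genes (19.2%, against 11.2% of all genes) and below them for 3 (3.85%, against 10.6% of all genes). The 3 lower genes were Bbs5, Cfap298 and Ift27. Among the 10 genes of smallest p, none of them called in the edgeR test within EpiLCs, were Cfap97, Cep290, Ahi1, Cep192, Ift140, Cep295, Cfap298, Bbs5 and Cep85. DESeq2 called 3 members, Cfap97, Cep290 and Ahi1, against 0.634% of all genes. On simulated counts its calls held a larger share of false ones than the threshold of 0.05 and than those of edgeR. For ESCs the simulated calls of edgeR exceeded the threshold as well. The simulated counts were drawn independently for each library, unlike the libraries here. They therefore cannot give the share of false calls of either tool in these data, and the DESeq2 calls are not set aside on this ground. An edgeR fit of all 12 libraries, which shares its estimate of the spread with ESCs, called 6, the same 3 with Cep192, Cep295 and Ift140, against 3.31% of the 12410 genes in both tables.

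All 7 transition zone genes were above 0 in EpiLCs, with a median of 0.22 and 0 called by edgeR (3 at an unadjusted p under 0.05, 2 by DESeq2), and 6 of 7 with the offsets, with a median of 0.12. Cep290, which links the membrane to the microtubules of the transition zone, stood at 20.4, 19.3 and 19.3 CPM in vehicle and at 24.8, 26.6 and 26.4 CPM in exposed EpiLCs. The groups did not overlap, and the log2(fold-change) was 0.40 ± 0.06 (SE), with an adjusted p of 0.144. Ahi1, the gene of jouberin, stood at 24.9, 22.3 and 25.1 CPM in vehicle and at 31.2, 35.0 and 31.2 CPM in exposed EpiLCs. Every exposed library was above every vehicle library, and the log2(fold-change) was 0.43 ± 0.08 (SE), with an adjusted p of 0.144.

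Rpgrip1l, a scaffold of the transition zone, stood at 9.38, 8.96 and 7.17 CPM in vehicle and at 8.96, 9.52 and 11.3 CPM in exposed EpiLCs. These groups overlapped, with a log2(fold-change) of 0.22 ± 0.14 (SE). In ESCs the log2(fold-change) was −0.0074 for Cep290, 0.068 for Ahi1 and 0.13 for Rpgrip1l, none of them called.

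Among the transport genes, Ift140 stood at 15.5, 16.8 and 16.4 CPM in vehicle and at 20.8, 19.3 and 19.8 CPM in exposed EpiLCs. The groups did not overlap, with a log2(fold-change) of 0.30 ± 0.07 (SE) and an adjusted p of 0.172, beside −0.10 in ESCs. The IFT-B genes were not of 1 direction in EpiLCs, with 5 of 11 above 0 and a median of −0.029. Ift57, called lower in ESCs, stood at 12.9, 12.9 and 12.2 CPM in vehicle and at 11.7, 11.8 and 12.4 CPM in exposed EpiLCs. There the groups overlapped and the log2(fold-change) was −0.08 ± 0.07 (SE). Bbs5, a BBSome subunit, stood at 16.6, 15.9 and 16.0 CPM in vehicle and at 13.9, 14.6 and 14.5 CPM in exposed EpiLCs. All 3 exposed libraries were lower, with a log2(fold-change) of −0.17 ± 0.06 (SE) and an adjusted p of 0.285. Arl13b, a small GTPase of the ciliary membrane, stood at 17.0, 16.3 and 18.7 CPM in vehicle and at 20.2, 21.4 and 18.6 CPM in exposed EpiLCs, which overlapped.

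Of the centrosome genes, all 4 of pericentriolar material and cohesion were above 0 in EpiLCs, with a median of 0.11 and 0 called (1 at an unadjusted p under 0.05, 0 by DESeq2). With the offsets 3 of the 4 were above 0 and the median was 0.060. Cep192, which recruits pericentriolar material to the centrioles, stood at 129.4, 133.8 and 126.2 CPM in vehicle and at 154.5, 150.9 and 159.2 CPM in exposed EpiLCs. The groups did not overlap, with a log2(fold-change) of 0.25 ± 0.06 (SE) and an adjusted p of 0.171. With the offsets its log2(fold-change) was 0.091. Pcnt, the gene of pericentrin, stood at 80.2, 87.3 and 90.5 CPM in vehicle and at 93.5, 86.9 and 83.6 CPM in exposed EpiLCs, which overlapped, with a log2(fold-change) of 0.033. Among the satellite genes, Pcm1 stood at 160.0, 180.9 and 147.5 CPM in vehicle and at 190.7, 166.3 and 205.8 CPM in exposed EpiLCs. The groups of Pcm1 overlapped, and its log2(fold-change) was 0.20 ± 0.11 (SE), beside 0.13 ± 0.05 (SE) in ESCs. Ofd1, of satellites and the distal centriole, had a log2(fold-change) of 0.10 ± 0.12 (SE) in EpiLCs and 0.014 in ESCs.

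Of the centriole duplication and length genes, 8 of 11 were above 0 in EpiLCs, with a median of 0.11, and 7 of 11 with the offsets, with a median of 0.052. Cep295, needed to turn a new centriole into a centrosome, stood at 66.4, 57.4 and 68.4 CPM in vehicle and at 78.6, 90.9 and 77.0 CPM in exposed EpiLCs. The groups did not overlap, with a log2(fold-change) of 0.36 ± 0.10 (SE) and an adjusted p of 0.204, and 19.1% of its exon bases are shared with other genes. Cep85 stood at 61.5, 66.9 and 64.8 CPM in vehicle and at 75.3, 69.7 and 72.0 CPM in exposed EpiLCs. The groups of Cep85 did not overlap, with a log2(fold-change) of 0.17 ± 0.06 (SE) and an adjusted p of 0.286.

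Cfap97 and Cfap298 were the Cfap genes among the 10 of smallest p, with opposite signs. Cfap97 stood at 12.6, 13.0 and 13.1 CPM in vehicle and at 17.9, 17.6 and 17.4 CPM in exposed EpiLCs. Its groups were well apart, with a log2(fold-change) of 0.45 ± 0.06 (SE) and an adjusted p of 0.144, and in ESCs it was 0.17 ± 0.04 (SE), with an adjusted p of 0.0630. Cfap298 stood at 14.2, 14.3 and 13.2 CPM in vehicle and at 11.3, 11.4 and 12.3 CPM in exposed EpiLCs. It was lower in every exposed library of each cell type, with a log2(fold-change) in EpiLCs of −0.26 ± 0.07 (SE) and an adjusted p of 0.217. The widest differences in EpiLCs came from genes of few counts. Cfap69 stood at 2.23, 1.10 and 1.24 CPM in vehicle and at 1.79, 3.50 and 3.10 CPM in exposed EpiLCs, which overlapped, with a log2(fold-change) of 0.87 ± 0.35 (SE). Cfap126 stood at 1.13, 1.01 and 1.82 CPM in vehicle and at 0.97, 1.14 and 0.51 CPM in exposed EpiLCs, which overlapped as well, with −0.58 ± 0.35 (SE). Cep170b, called in ESCs, had a log2(fold-change) of 0.011 in EpiLCs, where its libraries spread from 69.9 to 90.2 CPM.

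**Figure D3:**
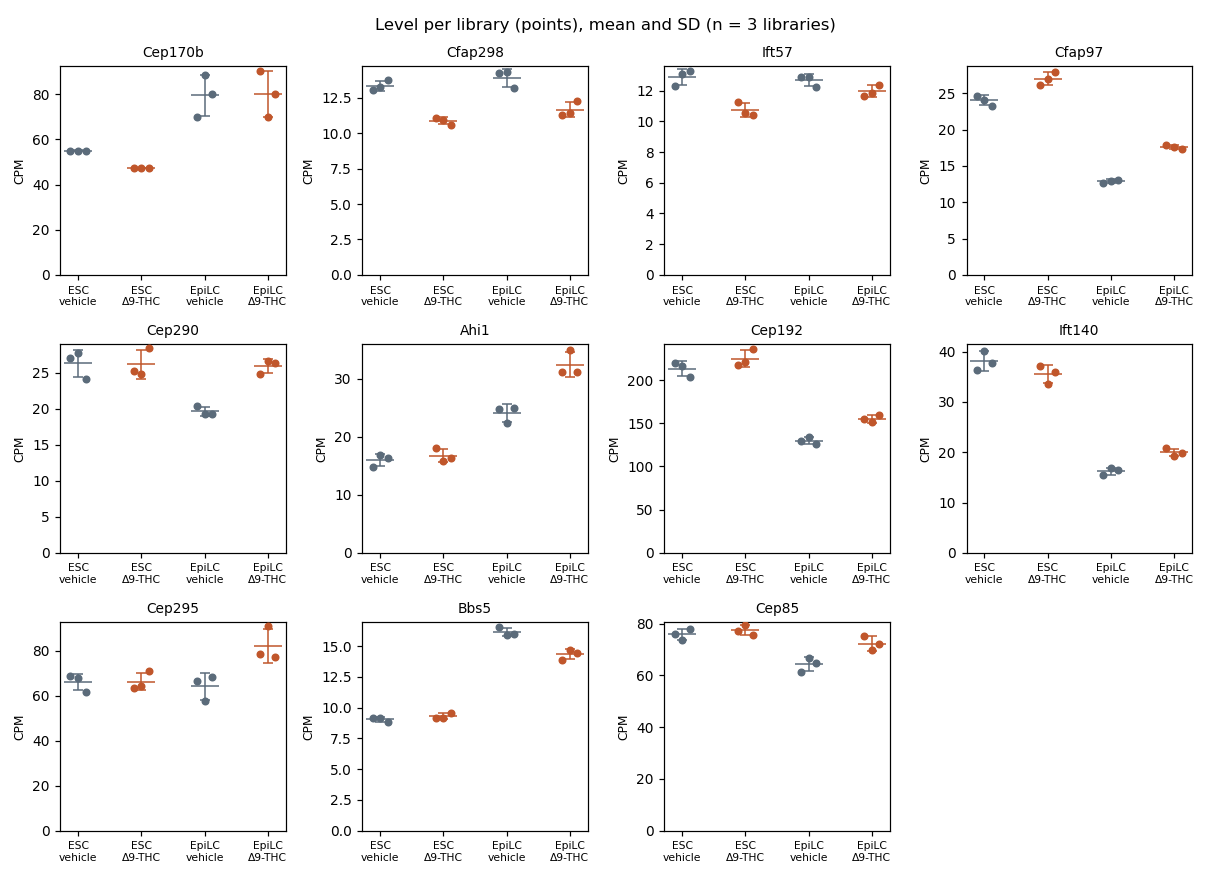
Level in CPM of 11 genes called in ESCs or of smallest p in EpiLCs, with a point for each library and the mean and SD of 3 libraries, in vehicle (grey) and Δ9-THC (orange) ESCs and EpiLCs. Cep170b has nearly equal libraries in ESCs and a wide spread in EpiLCs, and Cfap97, Cep290 and Ahi1 separate by exposure in EpiLCs.

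An interaction term over the 12 libraries tested whether exposure acted differently in ESCs and EpiLCs. None of the 77 genes passed an adjusted p of 0.05, against 0.0322% of 12410 genes in edgeR. At an unadjusted p under 0.05, 15 members passed (19.5%), against 13.7% of all genes. The smallest p was that of Ift140, whose log2(fold-change) was 0.42 ± 0.09 (SE) higher in EpiLCs than in ESCs, with an adjusted p of 0.0871. DESeq2 called Ift140 alone, against 1.07% of all genes. Its false calls on the same independently drawn simulated counts were again above the threshold, which cannot give their share in these data. For Cep290 the difference was 0.42 ± 0.10 (SE), with an adjusted p of 0.118. The difference was above 0 for 56 of the 77 genes (72.7%), against 52.9% of all genes, and for 48 of the 77 with the offsets, against 46.5% of all genes. It was 0.20 ± 0.10 (SE) for Ift57 and 0.25 ± 0.13 (SE) for Cep170b, with adjusted p of 0.397 and 0.433. The response of these genes in ESCs was thus not shown to differ from that in EpiLCs.

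Cilium and centrosome genes are long, and fold changes moved with length and GC content across the whole table. The median exon length of the members was 5742 bases, against 4187 over all genes, and their median GC content was 46.6%, against 49.8%. In EpiLCs the Spearman correlation of log2(fold-change) with exon length was 0.424 across 78 members and 0.338 across 13698 genes, which share their libraries. With GC content it was −0.473 across the members and −0.300 across 13696 genes. In ESCs it was −0.448 with GC content across 81 members and −0.536 across 13083 genes, and 0.091 and 0.060 with length. The correlations of the members had the same sign as those of all genes in both cell types.

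Split by length, 38 of the 46 members with over 5000 exon bases were above 0 in EpiLCs (82.6%), as were 68.2% of all such genes. Of the 31 shorter members 18 were above 0 (58.1%), as were 36.7% of all such genes. With the trends removed, the median log2(fold-change) of the members in EpiLCs was 0.036, against −0.016 over all genes. Of the 78 members 45 were then above 0 (57.7%, against 46.1% of all genes). In ESCs the median was 0.0044, with 42 of 81 above 0 (51.9%, against 50.3% of all genes). The positive lean in EpiLCs was smaller with these trends removed. Single genes varied between fits as well. Over all alternatives listed below, the log2(fold-change) in EpiLCs ran from 0.22 to 0.43 for Cep290 and from 0.17 to 0.41 for Cep295. It ran from 0.032 to 0.30 for Rpgrip1l and from 0.078 to 0.29 for Pcm1. The range was narrower for Ahi1, at 0.34 to 0.46, and for Cfap97, at 0.37 to 0.46.

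**Figure D4:**
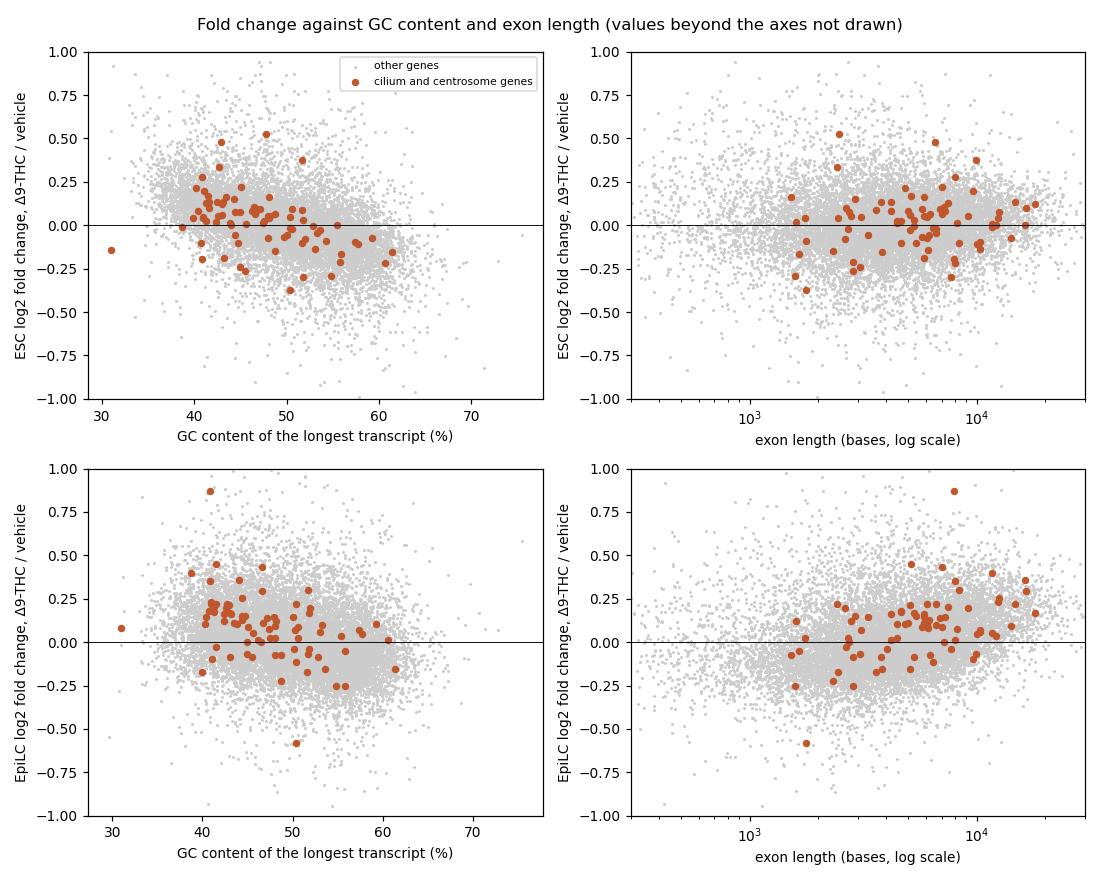
log2(fold-change) of Δ9-THC over vehicle against the GC content of the longest transcript (left, percent) and the exon length (right, bases, log axis), in ESCs (top) and EpiLCs (bottom), for cilium and centrosome genes (orange) and all other genes (grey). Both sets slope down with GC content in ESCs and up with length in EpiLCs.

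**Figure D5:**
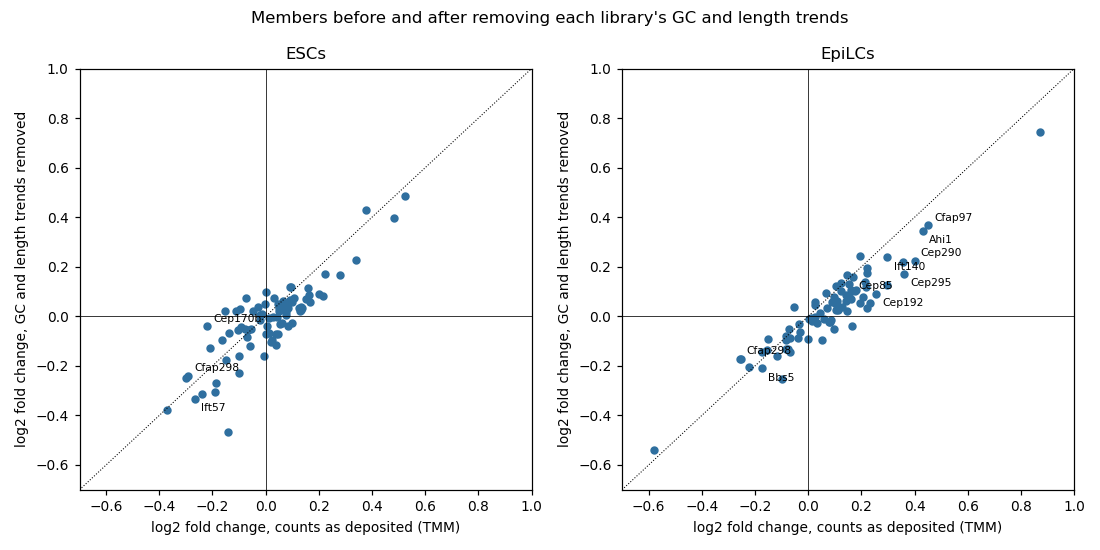
log2(fold-change) of each member in the edgeR fit of the counts as deposited (horizontal) and in the fit with the GC and length trends of each library removed (vertical), in ESCs (left, the 3 called genes named) and EpiLCs (right, 9 of the 10 genes of smallest p named). The dotted line marks equal values; Cep170b in ESCs moves from −0.22 to −0.04, and most EpiLC points above 0 lie below the line.

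Other genes of cilia and centrosomes, whose symbols the rule does not cover, gave a wider view of the pathway. Of 94 such genes in either table, 90 were tested in ESCs. DESeq2 called 4 of them, against 5.79% of all genes, and edgeR called 3, each of them lower. These 3 were 3.33% of the 90, against 6.91% of all genes in either direction and 3.55% as lower. The median over the 90 was 0.015 on the log2 scale. The 3 were Smo, the Hedgehog transducer that gathers in the cilium, at −0.28 ± 0.04 (SE), Unc119b, a carrier of lipid-modified proteins into the cilium, at −0.20 ± 0.03 (SE), and Plk1, a mitotic kinase that also drives cilium disassembly, at −0.15 ± 0.03 (SE), with adjusted p of 0.0283, 0.0301 and 0.0362. With the offsets the log2(fold-change) was −0.16 for Smo, −0.12 for Unc119b and −0.076 for Plk1, and the adjusted p of 0.158, 0.165 and 0.187 no longer passed. With the replicate number as a block they were 0.414, 0.414 and 0.429. The 4 genes of DESeq2 were these 3 and Cetn3, a centriole assembly gene that was higher, with an adjusted p of 0.00348 in DESeq2. In edgeR the log2(fold-change) of Cetn3 was 0.35 ± 0.09 (SE), with an adjusted p of 0.0565, and its groups did not overlap. With the offsets it was 0.17. In EpiLCs edgeR called 0 of 94 (13 at an unadjusted p under 0.05, 0 by DESeq2), and the 13 were 13.8%, against 15.1% of all genes. In EpiLCs 58 of the 94 were above 0 and the median was 0.021, but with the offsets 40 were above 0 and the median was −0.025, against −0.016 over all genes.

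Lists of like function did not all lean as the members did. Of the 18 other transition zone genes, such as the Tctn, B9 and Tmem genes, 7 were above 0 in EpiLCs and the median was −0.053, unlike the 7 of 7 among the members. Of the 14 other pericentriolar genes, 13 were above 0 in EpiLCs, with a median of 0.14, and 9 with the offsets, with a median of 0.045. Of 17 IFT subunits and motors under other names, 10 were above 0 in EpiLCs and 8 of 16 in ESCs. Of 12 centriole assembly genes under other names, 9 were above 0 in each cell type. With the offsets 7 of these 12 were above 0 in ESCs and 4 in EpiLCs, where the median turned from 0.052 to −0.041. Of the ciliogenesis transcription factors 4 of 7 were above 0 in ESCs and 7 of 10 in EpiLCs. With the offsets 5 of the 7 and 4 of the 10 were above 0, and the median in EpiLCs turned from 0.047 to −0.027. In these lists of other names edgeR called Unc119b, Plk1 and Smo in ESCs and no further gene.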

How the data were processed

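The data are RNA-seq counts of mouse ESCs and EpiLCs in 12 libraries. PGCLC libraries were not analysed here. The authors mapped reads with STAR, retained unique alignments and used HTSeq (union mode, unstranded) to obtain a count per gene. They then removed low genes and corrected the counts with ComBat-seq. The deposited values are the corrected counts, whole and not scaled for depth, with each cell type in its own table. Which batches were corrected is not given in the sources used here, and the genome is named both as mm10 and as GRCm39. In union mode a read that overlaps more than 1 gene is counted for none.

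Vehicle and Δ9-THC libraries were compared per cell type by the quasi-likelihood test of edgeR 4.0.16 (R 4.3.3) after TMM scaling, on genes with a total over 10 counts, with Benjamini-Hochberg adjustment over all genes and a threshold of 0.05. The scripts were tested on simulated data, where the share of false calls was above the threshold for DESeq2 in each comparison and for edgeR in ESCs. The simulated libraries were drawn independently and lacked the opposite deviations of same-numbered libraries. Each SE was derived from the F statistic. The interaction was fitted over 12 libraries. CPM is scaled by TMM, and CPM per kb divides it by exon length from GENCODE release 21, which also gave the GC content of the longest transcript. The labels call the libraries biological replicates and do not say more of their source. The p-values rest on the spread between these libraries after the adjustment, and the libraries as deposited were not independent. With at least 23427551 counts per library, counting error matters most for the lowest members, of which 8 in ESCs and 4 in EpiLCs had a total under 300 counts.

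The members and lists were chosen with earlier results of these data known. Genes were named by a rule: those called in ESCs, the 10 of smallest p in EpiLCs, those called in the interaction, the 6 named by their own symbol, the highest and lowest of each family per kb in vehicle ESCs, and the 5 highest and 5 lowest ratios between cell types. Some of these are not reported here. Bbs7, Cep19 and Cep41 were named for their X-box, and Cep44, Cep63, Cfap206, Cfap69, Cfap126, Ift43, Ift27 and the genes of other lists after their values were seen. As alternatives, the normalization was RLE, the filter was left out or required 10 counts in each library, the replicate number entered as a block, GC content and length entered as offsets (natural splines, 5 degrees of freedom), block and offsets were joined, DESeq2 1.42.0 replaced edgeR, all 12 libraries were fitted at once, and each library was left out in turn.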

Additional observations from a re-analysis of the deposited data

How the results depend on the processing

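In ESCs the 3 called members became 1 with DESeq2 and 0 with the GC and length offsets, with all 12 libraries in 1 fit, with the replicate block and with the block and offsets together, and 0 to 0 without any 1 library. The 906 genes called in the whole ESC table became 2, 31, 5 and 3 under the last 4 of these and 0 to 1 without any 1 library. In EpiLCs the count of members went from 0 to 3 with DESeq2 and 6 in the fit of 12 libraries, and that of all genes from 0 to 87 and 411. The median of the EpiLC members went from 0.096 to 0.036 with the offsets and 0.035 with the block and offsets. Without any 1 library it ran from 0.067 to 0.12, the lowest without exposed replicate 2. The interaction gave 1 member with DESeq2. A replicate number was taken to pair libraries only where their deviations correlated at over 0.1. Same-numbered libraries deviated in opposite directions, so the block is given as an alternative and its fewer calls are not set aside. Whether the number was a batch of the adjustment made before deposit is not given in the sources used here, and the cause of the differences between fits was not tested.

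Some uncalled members near 0 changed sign. In ESCs with the offsets, and with the block and offsets, the log2(fold-change) was −0.029 and −0.029 for Arl13b, −0.12 and −0.12 for Bbs5, −0.072 and −0.071 for Cep295 and −0.066 and −0.066 for Ofd1, and in EpiLCs −0.0057 and −0.0065 for Cep170b and −0.028 and −0.028 for Pcnt. In ESCs it was −0.00098 with DESeq2, −0.0011 with RLE and −0.014 in the fit of 12 libraries for Cep295, −0.00089, −0.00083 and −0.014 for Pcnt in the same order, and −0.0019 in the fit of 12 libraries for Ofd1. Without any 1 library the range in ESCs was −0.070 to 0.032 for Cep290, −0.048 to 0.031 for Cep295, −0.014 to 0.050 for Ofd1 and −0.016 to 0.015 for Pcnt, and in EpiLCs −0.097 to 0.095 for Cep170b, −0.0040 to 0.17 for Ofd1 and −0.026 to 0.074 for Pcnt.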
